A study of Caenorhabditis elegans with 18 samples.

Results

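The genes described here encode the precursors of 2 neuropeptide families of Caenorhabditis elegans, the FMRFamide-like peptides (flp genes) and the neuropeptide-like proteins (nlp genes). They were taken as every probe set whose annotated gene symbol starts with flp- or nlp-, which gave 83 of 17118 named genes and 94 of the 22548 probe sets on the array other than Affymetrix controls. Of these, 32 probe sets stood for 25 flp genes and 62 for 58 nlp genes, and 2 further probe sets that carried an nlp symbol together with another gene were not counted. Whole wild-type (N2) worms were kept at 20 °C and fed E. coli OP50 on NGM agar, and their RNA was measured on 18 Affymetrix arrays, 1 per sample. In the H2O2 group (n = 5) worms received 0.3 mM hydrogen peroxide for 2 hours at the L4 larval stage. In the TRF group (n = 4) they were given TRF, a tocotrienol-rich fraction made up of vitamin E compounds, for their whole life cycle. In the TRF+H2O2+TRF group (n = 4) they received TRF from hatching to day 3 of adulthood with hydrogen peroxide in between, at a dose that the labels do not repeat, and control worms (n = 5) received neither agent. The labels name a day of adulthood for the TRF+H2O2+TRF group only. A difference in age or in hydrogen peroxide dose between groups therefore cannot be told apart from the treatments named. The labels do not say whether the samples of a group were separate cultures, so a p-value here reflects spread among samples that may be technical, and precision is limited by how many arrays there are.

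Neuropeptide precursors are cut by proprotein convertases and carboxypeptidases inside dense core vesicles, amidated, released from neurons and a few other tissues, and sensed mostly by G protein-coupled receptors on distant cells. The flp peptides end in arginine-phenylalanine-amide and act on movement, feeding, egg laying and sleep. The nlp genes are a mixed family that holds transmitters of neurons, gut peptides and a group of glycine- and tyrosine-rich (YGG) peptides that the epidermis makes against fungi. Peptides of both families take part in stress responses: FLP-1 from the AIY neurons and FLP-2 from the intestine belong to a known nerve and gut circuit of the oxidative stress response, and FLP-13 and NLP-8 from the ALA neuron bring on sleep after stress.

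Signals are MAS5 values on a linear scale, compared as log2(signal + 1), and a log2 fold change is the mean of the first group named minus that of the second. A filter on dim probe sets kept 80 of the 94 members, 30 for 23 flp genes and 50 for 47 nlp genes. The 14 that lay below it were flp-23, flp-27, nlp-22, nlp-23, nlp-45, nlp-53, nlp-60, nlp-62, nlp-67, nlp-69, nlp-89, nlp-90, nlp-101 and 1 of the nlp-6 probe sets. Among them, nlp-22, which encodes a sleep-promoting peptide of the RIA neurons, averaged a signal of 8.84 in H2O2 worms, 20.7 in TRF worms, 9.95 in TRF+H2O2+TRF worms and 6.69 in control worms. Levels of different probe sets are not set against each other.

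Single arrays moved many members together within a group. In the TRF group replicate 3 was the lowest array for 27 of 30 flp and 36 of 50 nlp probe sets, whereas it was lowest for 29.8% of all 13529 probe sets tested. In the TRF+H2O2+TRF group replicate 3 was the lowest for 28 flp and 46 nlp probe sets, against 33.4% of all tested, and in the control group replicate 5 was the lowest for 23 flp and 30 nlp probe sets, against 27.4%. In the H2O2 group replicate 4 was the highest for 26 flp and 36 nlp probe sets, against 19.7%. The mean log2 signal over the 30 flp probe sets ran from 8.04 to 8.87 on H2O2 arrays, from 7.81 to 8.59 on TRF arrays, from 8.01 to 8.71 on TRF+H2O2+TRF arrays and from 7.749 to 8.499 on control arrays. The SD of that mean within groups was 0.321, and 0.274 for nlp.

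Markers of some tissues were extreme within their group on each of these 4 arrays. The mean log2 signal of 12 body wall muscle markers was lowest in its group on TRF replicate 3 (9.93), TRF+H2O2+TRF replicate 3 (10.2) and control replicate 5 (9.96). The mean of 14 oocyte and germline markers was highest in its group on the same arrays, at 12.3, 12.3 and 12.4. On H2O2 replicate 4 the muscle mean was 10.95, below the 11.17 of H2O2 replicate 1, and the oocyte and germline mean was the lowest of its group, at 11.96. The mean log2 signal of 16 neuron markers was lowest in its group on TRF replicate 3 (7.448) and on TRF+H2O2+TRF replicate 3 (7.308), but control replicate 5 (7.376) lay above control replicate 3 (7.14), and the highest H2O2 array was replicate 1 (8.191). The mean of 15 sperm markers ran from 6.569 to 9.533 on H2O2 arrays, from 6.323 to 9.994 on TRF arrays, from 6.895 to 9.178 on TRF+H2O2+TRF arrays and from 7.012 to 9.89 on control arrays. For 14 of the 15 sperm markers H2O2 replicate 4 was the highest array of its group, and control replicate 5 was the lowest for 12. In contrast, TRF replicate 3 and TRF+H2O2+TRF replicate 3 were each the lowest for 0 of 15. The lowest array for 15 of 15 was replicate 4 in both of those groups, and replicate 5 in the H2O2 group. The summed signal of the 16 neuron markers that passed the filter ran from 7830 to 9076 on H2O2 arrays, from 6822 to 9606 on TRF arrays, from 6319 to 9381 on TRF+H2O2+TRF arrays and from 7408 to 9848 on control arrays. The remaining 5 neuron markers, cha-1, cho-1, eat-4, rgef-1 and unc-47, lay below the filter. The part of tissue content in the results that follow was not tested, and in RNA of whole worms fewer cells of a type and less RNA per cell cannot be told apart. Arrays numbered 5 came from a later submission.

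**Figure D1:**
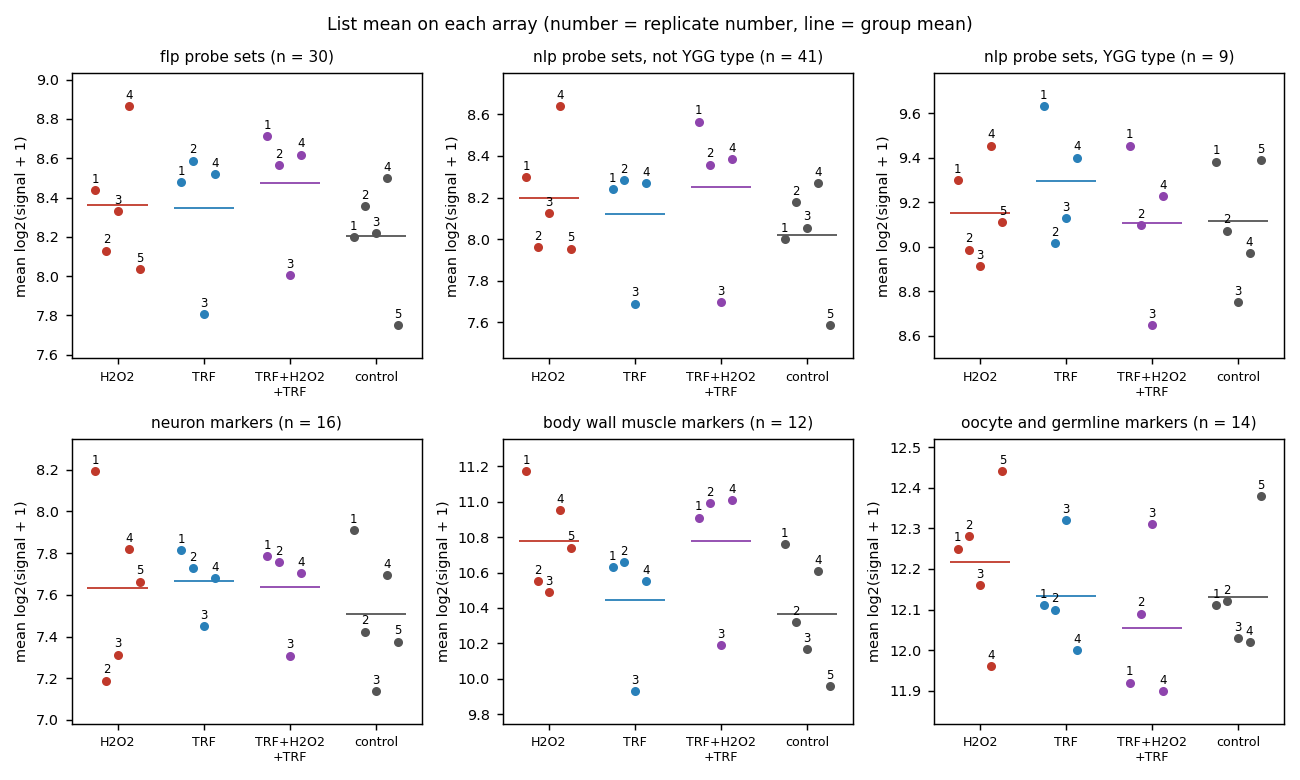
Mean log2(signal + 1) on each array (vertical axis) over flp probe sets, nlp probe sets apart from the YGG type, nlp probe sets of the YGG type and 3 sets of tissue markers, by group (horizontal axis). Each point is an array with its replicate number and the line is the group mean. TRF replicate 3 (7.81), TRF+H2O2+TRF replicate 3 (8.01) and control replicate 5 (7.75) lie lowest in their groups for flp, and also for muscle markers.

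**Figure D2:**
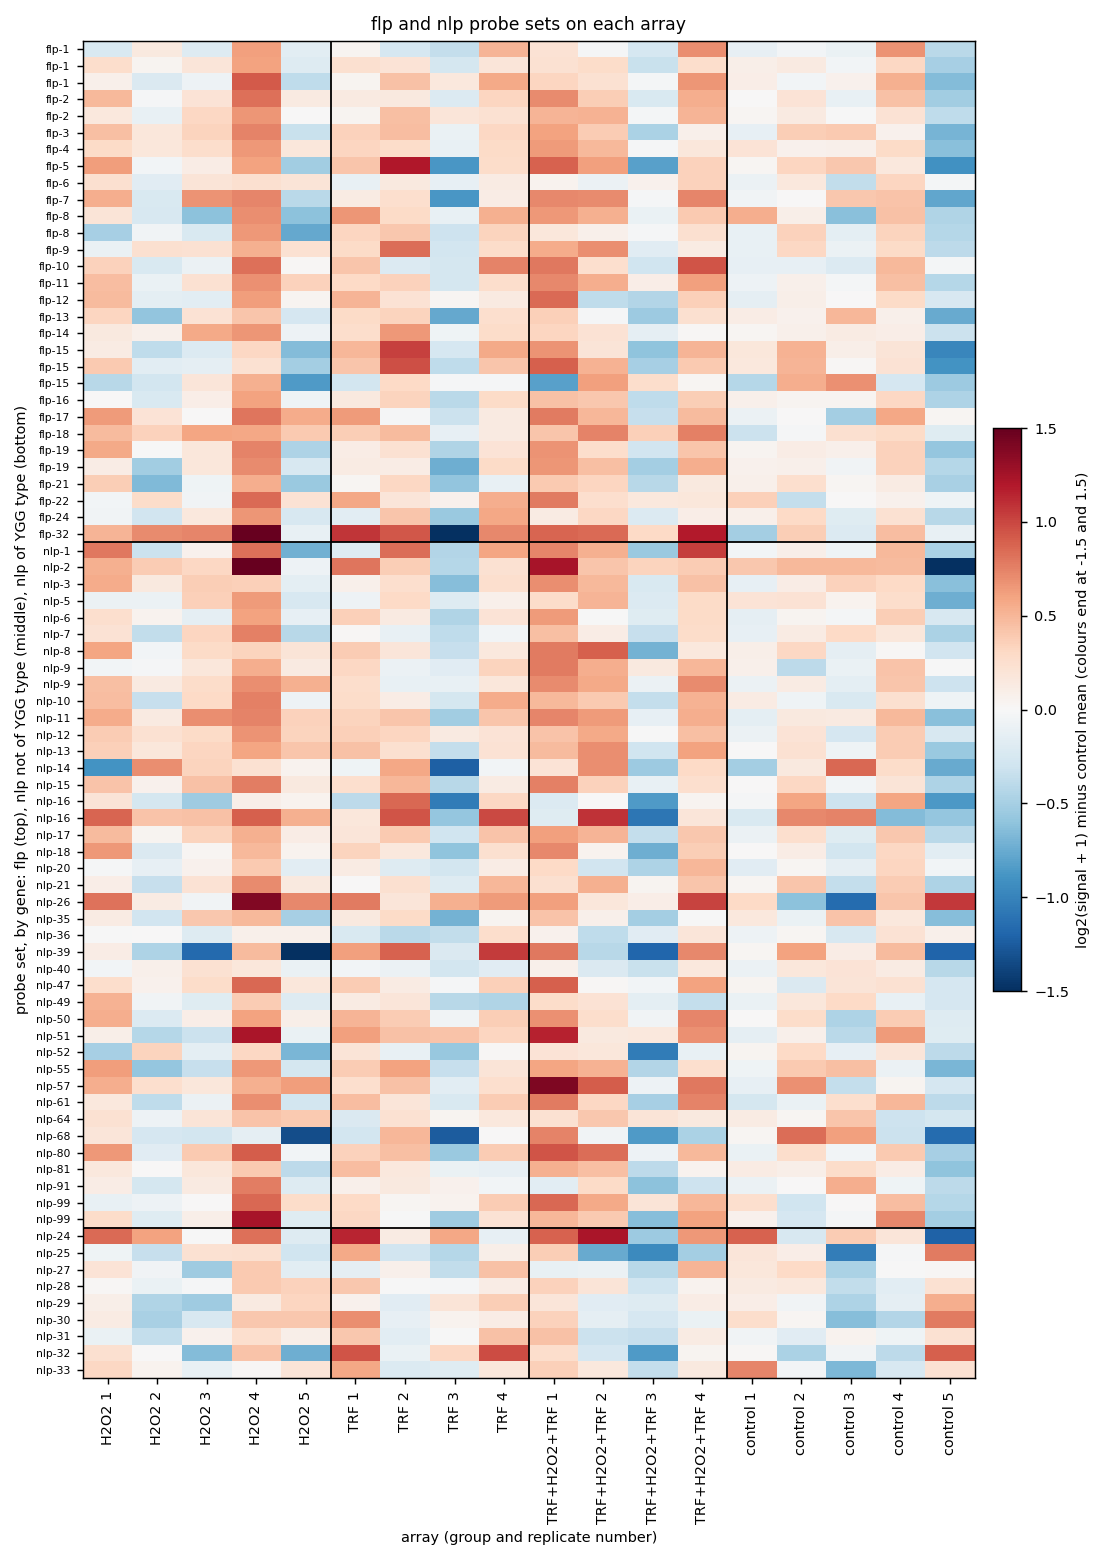
Each row is 1 of the 80 probe sets tested and each column an array, with black lines between groups and between the flp, other nlp and YGG-type nlp genes. Colour is log2(signal + 1) minus the control mean of that probe set. The column of H2O2 replicate 4 is mostly red and those of both replicate 3 arrays of TRF-fed worms and of control replicate 5 mostly blue, across flp and most nlp rows.

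After exposure to H2O2 most flp and nlp genes had a somewhat higher mean signal than in control worms, and no single gene passed the test. The mean was higher for 24 of 30 flp probe sets, with a median log2 fold change of 0.17 and a range of -0.18 to 0.68. It was higher for 40 of 50 nlp probe sets, with a median of 0.13 and a range of -0.57 to 0.63. Over all probe sets tested 49.5% had a higher mean and the median was -0.0019. At an adjusted p under 0.05 limma called 0 flp and 0 nlp probe sets and 0.0% of all, and at an unadjusted p under 0.05 it gave 2 flp and 3 nlp probe sets, each with a higher mean in H2O2, beside 2.34% of all. The methods' t-test at the same unadjusted threshold gave 1 flp and 2 nlp probe sets, beside 2.96%. With the replicate number as a block 4 flp and 11 nlp probe sets lay under the unadjusted threshold, beside 9.51% of all, and 0 were called. Among these, nlp-39 alone had a lower mean in H2O2, at a log2 fold change of -0.57 and a limma unadjusted p of 0.0101 with the block.

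The gene with the clearest separation was flp-18, whose peptides act on the receptors NPR-1, NPR-4 and NPR-5 and are known from foraging and fat storage. Its signal was 937, 861, 1019, 1012 and 891 in the H2O2 samples, against 540, 671, 800, 824 and 595 in the control samples. Every H2O2 array lay above every control array, which was the case for 1 flp and 0 nlp probe sets, and for 0.473% of all tested the groups did not overlap in either direction. The log2 fold change was 0.48 ± 0.144 (SE), with the H2O2 array higher in 5 of 5 equal replicate numbers and a limma adjusted p of 1.0. With the replicate number as a block the limma adjusted p was 0.209. Leaving out each array in turn gave log2 fold changes of 0.39 to 0.55.

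The next flp genes by p were flp-32, flp-17, flp-11 and flp-2. The signal of flp-32 was 79.4, 90.7, 92.3, 165 and 51.2 in H2O2 samples, against 38.5, 71.9, 47.7, 76.4 and 50.99 in control samples. The groups overlapped, the H2O2 array was the higher in 5 of 5 equal numbers, and the log2 fold change was 0.68 ± 0.313 (SE). For flp-17, which encodes a ligand of EGL-6 made in the BAG neurons that inhibits egg laying, H2O2 samples had 373, 277, 240, 418 and 353 and control samples 225, 241, 168, 359 and 244. The H2O2 array was again the higher in 5 of 5 equal numbers, at a log2 fold change of 0.44 ± 0.220 (SE), although the groups overlapped. Smaller differences were those of flp-11, the sleep-inducing peptide gene of the RIS neuron, at 0.33, and of flp-2 at 0.32. The other probe set of flp-2 gave 0.20, and without control replicate 5 the chosen one gave 0.19.

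Among nlp genes the smallest p-values belonged to nlp-11, nlp-9, nlp-16, nlp-12 and nlp-57. The signal of nlp-11 was 734, 547, 806, 834 and 634 in H2O2 samples, against 449, 553, 547, 697 and 322 in control samples. H2O2 replicates 2 and 5 lay within the control range and the other H2O2 arrays above it, and the log2 fold change was 0.50 ± 0.202 (SE). The signal of nlp-9 was 502, 401, 443, 593 and 531 in H2O2 samples, against 345, 399, 331, 488 and 294 in control samples. The H2O2 array was the higher in 5 of 5 equal numbers, the groups overlapped through control replicate 4, and the log2 fold change was 0.42 ± 0.172 (SE), while the other probe set of nlp-9 gave 0.16.

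For nlp-12, the cholecystokinin-like peptide gene of the DVA neuron that tunes locomotion, H2O2 samples had 270, 243, 255, 332 and 263 and control samples 195, 239, 174, 271 and 176. Control replicate 4 was the only control array above the lowest H2O2 arrays, and the log2 fold change was 0.38. The log2 fold change of nlp-57 was 0.43. That of nlp-16 was 0.63 ± 0.293 (SE) on its chosen probe set and -0.09 on the other, so its direction depended on the probe set. Each of these 10 flp and nlp genes had a limma adjusted p of 1.0.

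The size of the shift in both families rested on a few arrays. Without H2O2 replicate 4 the median was 0.059 for flp, with 18 of 30 higher, and 0.027 for nlp, with 28 of 50 higher, beside 49.6% of all tested. Without control replicate 5 it was 0.062 for flp, with 17 of 30 higher, and 0.088 for nlp, with 37 of 50 higher, beside 50.1%. With each array centred on its median signal 19 flp and 33 nlp probe sets were higher, beside 33% of all tested, and the medians were 0.097 for flp, 0.055 for nlp and -0.07 for all. Neuron markers had a higher mean in H2O2 for 11 of 16 genes (median 0.15), and body wall muscle markers for 11 of 12 (median 0.46), with a summed muscle signal of 33160 to 43510 on H2O2 arrays and 21670 to 33450 on control arrays. Their part in the flp and nlp values was not tested.

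**Figure D3:**
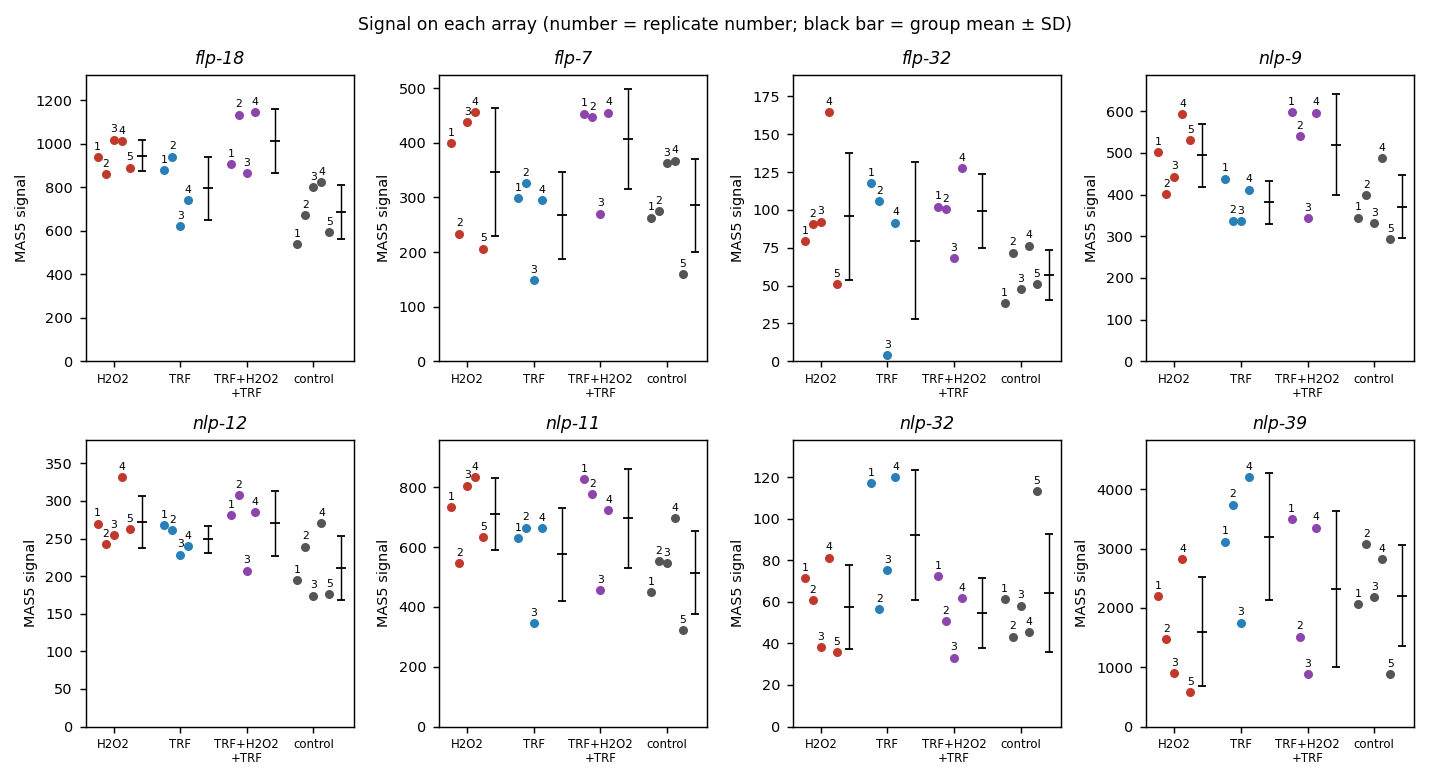
MAS5 signal (vertical axis, linear, from 0) of 8 flp and nlp genes on each array, by group (horizontal axis), with the replicate number beside each point and the group mean ± SD as a black bar. For flp-18 the H2O2 points (861 to 1019) and the TRF+H2O2+TRF points (866 to 1146) lie above the control points (540 to 824). TRF replicate 3 lies apart at the bottom for flp-7, flp-32 and nlp-11.

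With TRF alone, too, most flp and nlp genes had a higher mean than in control worms, and no gene separated the groups. Between TRF and control worms the mean was higher for 24 of 30 flp probe sets (median log2 fold change 0.17, range -0.20 to 0.46) and for 36 of 50 nlp probe sets (median 0.11, range -0.25 to 0.58), beside 57.6% of all tested with a median of 0.04. At an adjusted p under 0.05 limma called 0 flp and 0 nlp probe sets, and 1 probe set that is no member, 0.00739% of all. At an unadjusted p under 0.05 it gave 0 flp and 1 nlp probe set, beside 3.5%. The methods' t-test gave 0 of each at that threshold, beside 4.15%, and 0 of each had groups that did not overlap, beside 1.18% of all.

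The 1 nlp probe set was nlp-51. Its signal was 750, 665, 661 and 615 in TRF samples, against 449, 518, 372, 762 and 433 in control samples. All TRF arrays lay above all control arrays but replicate 4, and the log2 fold change was 0.45 ± 0.193 (SE) with a limma adjusted p of 0.995. Next among nlp genes came nlp-39 at 0.58 ± 0.344, nlp-32, of the YGG type, at 0.54 ± 0.327, nlp-50 at 0.30 (0.19 without control replicate 3) and nlp-12 at 0.26. The signal of nlp-39 was 3119, 3741, 1753 and 4204 in TRF samples, against 2069, 3075, 2186, 2822 and 880 in control samples. It had the widest spread within groups of the nlp probe sets above the filter, an SD of 0.809 on the log2 scale, so a difference of this size lay within the spread. Without control replicate 5 its log2 fold change was 0.28.

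Among flp genes the smallest p-values in TRF worms belonged to flp-22, flp-14, flp-12, flp-9 and flp-8. The signal of flp-22 was 707, 534, 493 and 687 in TRF samples, against 602, 367, 473, 494 and 450 in control samples. The log2 fold change was 0.34 ± 0.175 (SE) with overlapping groups. The log2 fold changes of flp-14, flp-12, flp-9 and flp-8 ran from 0.22 to 0.34. Each rested in part on 1 array: flp-9 was 0.094 and flp-14 0.16 without TRF replicate 2, flp-12 was 0.13 without TRF replicate 1, and flp-8 was 0.18 without control replicate 3. Without TRF replicate 3 flp-9 was 0.47. The highest value of the family, 0.46, was read by a probe set of flp-15, a ligand gene of the receptor NPR-3, while its chosen probe set gave 0.36 and the third -0.0032. For flp-1 the 3 probe sets gave -0.01 to 0.30.

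These medians depended on single arrays in both directions. Without TRF replicate 3 the median was 0.29 for flp, with 30 of 30 higher, and 0.23 for nlp, with 46 of 50 higher, beside 55.2% of all tested. Without control replicate 5 it was 0.045 for flp, with 17 of 30 higher, and 0.022 for nlp, with 29 of 50 higher, beside 55.9%. Without both of those arrays it was 0.19 for flp, with 26 of 30 higher, and 0.17 for nlp, with 39 of 50 higher. After centring each array on its median it was 0.071 for flp, with 18 of 30 higher, and 0.015 for nlp, with 28 of 50 higher. Of all tested, 39% were then higher, with a median of -0.059. Neuron markers had a higher mean for 12 of 16 genes (median 0.13), and their part was not tested.

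Worms given TRF before and after H2O2 were compared with worms given H2O2 alone, groups that may also differ in age and in H2O2 dose. The flp family read slightly higher and the nlp family close to level. The mean was higher for 23 of 30 flp probe sets (median 0.11, range -0.17 to 0.48) and for 27 of 50 nlp probe sets (median 0.0098, range -0.63 to 0.54), beside 54.7% of all tested with a median of 0.02. At an adjusted p under 0.05 limma called 0 members and 0.0% of all, and at an unadjusted p under 0.05 it gave 0 flp and 0 nlp probe sets, beside 2.23%. The methods' t-test gave 0 of each, beside 2.71%, and 0 of each had groups that did not overlap, beside 0.961%.

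The gene with the smallest p of the flp family in that comparison was flp-8. Its signal was 449, 414, 267 and 375 in TRF+H2O2+TRF samples, against 328, 242, 186, 464 and 187 in H2O2 samples. H2O2 replicate 4 was the highest of these arrays, and the log2 fold change was 0.48 ± 0.280 (SE), with 0.30 on the second probe set of the gene. The log2 fold changes of flp-15, flp-7, flp-10 and flp-11 ran from 0.17 to 0.36. Leaving out each array in turn moved them widely: flp-15 lay between 0.17 (without TRF+H2O2+TRF replicate 1) and 0.64, and flp-7 between 0.11 (without H2O2 replicate 5) and 0.46. In the same way flp-10 lay between 0.075 (without TRF+H2O2+TRF replicate 4) and 0.49, and flp-11 between 0.061 (without H2O2 replicate 2) and 0.30. The highest value of each of the 4 came without TRF+H2O2+TRF replicate 3. Of these, flp-7 encodes a tachykinin-like signal of the ASI neurons that drives fat loss in the intestine, and flp-10 another EGL-6 ligand.

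Among nlp genes the smallest p belonged to nlp-16. Its signal was 118, 285, 62.5 and 152.1 in TRF+H2O2+TRF samples, against 247, 180, 183, 250 and 194 in H2O2 samples. The array of replicate 2 lay above and the other TRF+H2O2+TRF arrays below every H2O2 array, and the log2 fold change was -0.63 ± 0.348 (SE), with -0.16 on the other probe set. It was -0.27 without TRF+H2O2+TRF replicate 3 and -0.997 without TRF+H2O2+TRF replicate 2. The values of nlp-51 (0.44) and nlp-57 (0.33) were positive, and those of nlp-25 (-0.41) and nlp-91 (-0.31) negative. Without TRF+H2O2+TRF replicate 1 they were 0.24 for nlp-51, 0.11 for nlp-57 and -0.69 for nlp-25, and without H2O2 replicate 4 nlp-91 was -0.15.

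Here too single arrays set the medians. Without TRF+H2O2+TRF replicate 3 the median was 0.25 for flp, with 28 of 30 higher, and 0.18 for nlp, with 42 of 50 higher, beside 52.9% of all tested. Without TRF+H2O2+TRF replicate 1 it was 0.071 for flp and -0.098 for nlp, with 17 probe sets higher in each family. Without H2O2 replicate 4 it was 0.25 for flp and 0.11 for nlp, and without H2O2 replicate 5 it was 0.068 for flp and -0.014 for nlp. Oocyte and germline markers had a higher mean in 0 of 14 genes (median -0.15), and their part was not tested.

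The same TRF+H2O2+TRF worms against control, a comparison that the series design does not name, gave the highest flp median of the 5 comparisons. All 30 flp probe sets had a higher mean (median 0.28, range 0.010 to 0.80), and 34 of 50 nlp probe sets had (median 0.21, range -0.46 to 0.76), beside 54.5% of all tested with a median of 0.02. At an adjusted p under 0.05 limma called 0 members and 0.0% of all, and at an unadjusted p under 0.05 it gave 3 flp and 5 nlp probe sets, each with a higher mean, beside 2.84%. For 1 flp and 0 nlp probe sets the groups did not overlap, beside 1.03% of all. That gene was again flp-18, with 906, 1134, 866 and 1146 in TRF+H2O2+TRF samples against the control values given above, and a log2 fold change of 0.57 ± 0.164 (SE). The comparison shares its control arrays with the comparisons above and its TRF+H2O2+TRF arrays with the one before it.

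The other members under the unadjusted threshold included flp-32 (log2 fold change 0.80 ± 0.272, SE), flp-11 (0.49 ± 0.203), nlp-57 (0.76 ± 0.297), nlp-80 (0.55 ± 0.236), nlp-99 (0.53 on 1 of its probe sets) and both probe sets of nlp-9 (0.47 and 0.49). For flp-32 TRF+H2O2+TRF samples had 102, 100.6, 68.0 and 128, against 38.5, 71.9, 47.7, 76.4 and 50.99 in control samples. Only replicate 3 lay within the control range. For nlp-57 TRF+H2O2+TRF samples had 401, 285, 143 and 263, against 139, 243, 118, 155 and 127 in control samples. Replicate 3 was again the array inside the control range.

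In that comparison, leaving out control replicate 5 gave a median of 0.11 for flp, with 23 of 30 higher, and 0.13 for nlp, with 37 of 50 higher. Leaving out TRF+H2O2+TRF replicate 3 gave 0.44 for flp, with 29 of 30 higher, and 0.39 for nlp, with 46 of 50 higher, beside 51.7% of all tested. Leaving out TRF+H2O2+TRF replicate 1 gave 0.15 for flp and 0.12 for nlp. Body wall muscle markers had a higher mean in 12 of 12 genes (median 0.41), with a summed signal of 25020 to 42810 on TRF+H2O2+TRF arrays and 21670 to 33450 on control arrays, and neuron markers in 12 of 16 (median 0.16). Their part was not tested.

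**Figure D4:**
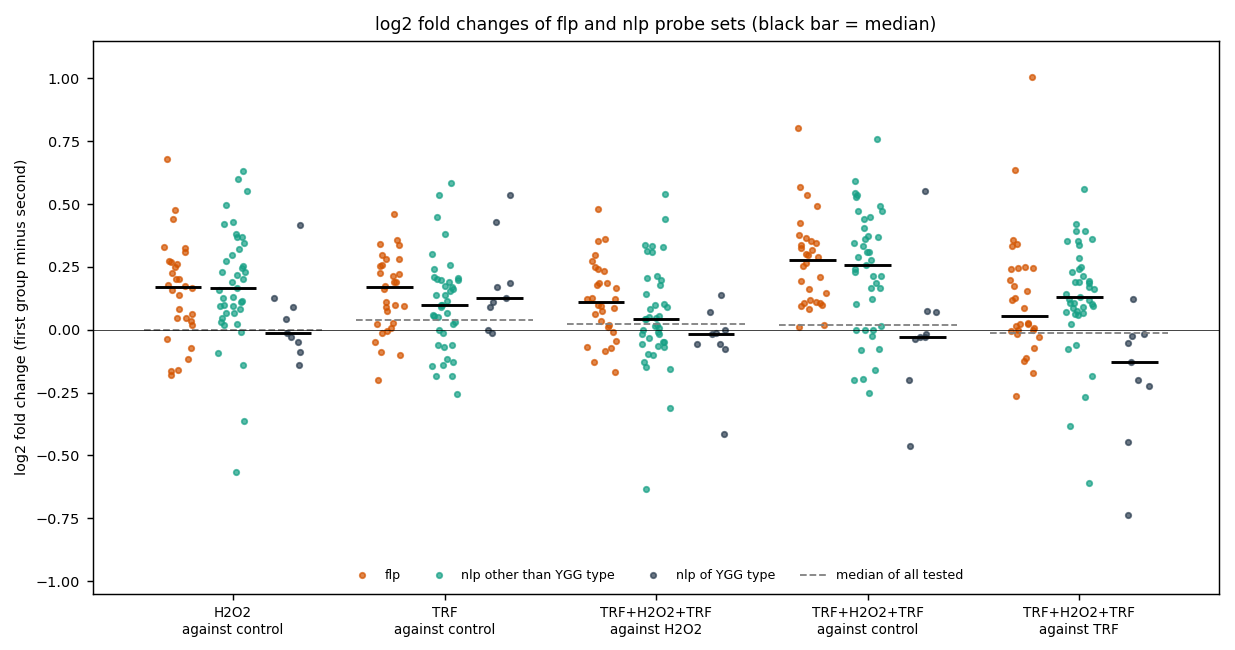
Log2 fold changes (vertical axis, first group minus second) of the flp probe sets, the nlp probe sets apart from the YGG type and those of the YGG type, in 5 comparisons of groups (horizontal axis). Each point is a probe set, the black bar the median and the dashed line the median of all tested. The flp points of TRF+H2O2+TRF against control all lie above 0, and the YGG-type points of TRF+H2O2+TRF against TRF lie mostly below it.

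TRF-fed worms with H2O2 were also compared with TRF-fed worms without it, which shares no array with H2O2 against control. The mean was higher for 20 of 30 flp probe sets (median 0.057, range -0.27 to 1.00) and for 36 of 50 nlp probe sets (median 0.11, range -0.74 to 0.56), beside 46.5% of all tested with a median of -0.01. At an adjusted p under 0.05 limma called 0 members and 0.0% of all, and at an unadjusted p under 0.05 it gave 1 flp and 1 nlp probe set, beside 1.46%. With the replicate number as a block 4 flp and 11 nlp probe sets lay under the unadjusted threshold, beside 6.46% of all, and 0 members were called. For 0 members the groups did not overlap, beside 1.09% of all.

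The flp gene was flp-7. Its signal was 454, 448, 270 and 456 in TRF+H2O2+TRF samples, against 298, 327, 149 and 295 in TRF samples. The replicate 3 array lay far below the others in both groups, and the TRF+H2O2+TRF array was the higher in 4 of 4 equal numbers. The log2 fold change was 0.64 ± 0.275 (SE), with a limma adjusted p of 1.0, and of 0.326 with the replicate number as a block. Without TRF replicate 3 the log2 fold change was 0.38. The nlp gene was nlp-32, with 72.5, 50.6, 33.2 and 61.9 in TRF+H2O2+TRF samples, against 117, 56.5, 75.3 and 120 in TRF samples. The TRF+H2O2+TRF array was the lower in 4 of 4 equal numbers, and the log2 fold change was -0.74 ± 0.321 (SE).

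Next by p came flp-18 (0.36 ± 0.168, SE) and nlp-9 (0.42 ± 0.204), each with the TRF+H2O2+TRF array higher in 4 of 4 equal numbers. The largest value of the flp family, 1.00 for flp-32, rested on TRF replicate 3, where its signal was 3.88 beside 91.7 to 118 on the other TRF arrays. Without TRF replicate 3 the median was -0.048 for flp, with 14 of 30 higher, and 0.0040 for nlp, with 27 of 50 higher. Without TRF+H2O2+TRF replicate 3 it was 0.24 for flp, with 26 of 30 higher, and 0.25 for nlp, with 42 of 50 higher. Without both it was 0.057 for flp, with 18 of 30 higher, and 0.16 for nlp, with 39 of 50 higher. Without TRF+H2O2+TRF replicate 1 it was 0.034 for flp and 0.012 for nlp. Body wall muscle markers had a higher mean in 12 of 12 genes (median 0.32) and neuron markers in 6 of 16 (median -0.02).

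Across the H2O2 comparisons without and with TRF, many members read higher after H2O2 in both. Most members were already higher in each alone (flp 24 and 20 of 30, nlp 40 and 36 of 50). A large overlap follows in part from those counts, and agreement beyond them was not tested. The mean was higher in both for 17 of 30 flp probe sets (56.7%) and for 34 of 50 nlp probe sets (68.0%), beside 25.1% of all tested. Without the number 3 arrays of TRF-fed worms the counts were 16 for flp and 37 for nlp, beside 25.8% of all. Without H2O2 replicate 4 they were 13 for flp and 24 for nlp, beside 24.7%, and without TRF replicate 3 alone 12 for flp and 26 for nlp, beside 23.9%. The H2O2 array was the higher in all 9 equal replicate numbers for flp-18, nlp-3 and the chosen probe set of nlp-9, and for 0.88% of all tested. On the other probe set of nlp-9 it was the higher in 4 of 5 equal numbers for H2O2 against control. The H2O2 array was the lower in all 9 for 0 members, and for 0.54% of all.

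The gene nlp-3, which works with serotonin in the HSN neurons to promote egg laying, was singled out after its values were seen. Its signal averaged 404 ± 71.1 in H2O2 worms, 340 ± 86.5 in TRF worms, 436.3 ± 108.4 in TRF+H2O2+TRF worms and 343 ± 84.9 in control worms (SD, n = 5, 4, 4 and 5). The log2 fold change was 0.26 ± 0.207 (SE) for H2O2 against control and 0.36 ± 0.253 for TRF+H2O2+TRF against TRF without the replicate block. With the replicate number as a block the unadjusted p was 0.085 in place of 0.239 for H2O2 against control, and 0.0147 in place of 0.183 for TRF+H2O2+TRF against TRF. The limma adjusted p with the block was 0.612 and 0.692 in those comparisons.

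**Figure D5:**
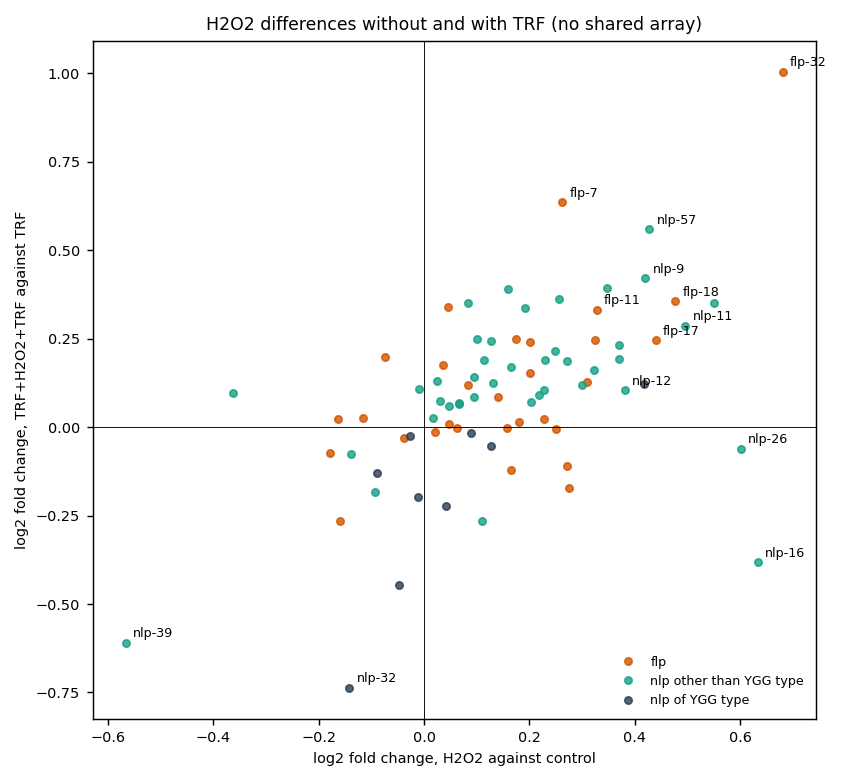
Each point is a flp or nlp probe set, with its log2 fold change for H2O2 against control on the horizontal axis and for TRF+H2O2+TRF against TRF on the vertical axis, comparisons that share no array. The upper right field, higher in both, holds 17 flp and 34 nlp probe sets, among them flp-18 and nlp-9. The lower left field holds 3 flp and 8 nlp probe sets, among them nlp-39 and nlp-32.

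Whether the H2O2 difference itself differed between worms with and without TRF was tested as an interaction over all 18 arrays. Its value was positive for 13 of 30 flp probe sets (median -0.04) and 21 of 50 nlp probe sets (median -0.04), beside 47.8% of all tested. At an adjusted p under 0.05 limma called 0 members and 0.0% of all, and at an unadjusted p under 0.05 it gave 0 flp and 0 nlp probe sets, beside 1.14%. The sign of both medians changed with single arrays: without TRF+H2O2+TRF replicate 3 they were 0.12 for flp and 0.11 for nlp, and without TRF replicate 3 -0.21 and -0.19. The flp genes with the smallest p were flp-14 (-0.45 ± 0.276, SE) and flp-3 (-0.38 ± 0.358). The nlp genes were nlp-16 (-1.01 ± 0.568) and nlp-26 (-0.66 ± 0.521). Without TRF+H2O2+TRF replicate 3 the values of flp-3 and nlp-16 were -0.17 and -0.65, and without control replicate 3 that of nlp-26 was -0.37.

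The 9 nlp probe sets of the YGG type were set beside the other 41 nlp probe sets, and the difference between these lists was not tested. The YGG list stands for antimicrobial peptides of the epidermis, but it also holds nlp-24, an opioid-like precursor. For H2O2 against control 4 of 9 had a higher mean (median -0.01), beside 36 of 41 of the others (median 0.16). For TRF+H2O2+TRF against TRF 1 of 9 had a higher mean (median -0.13), beside 35 of 41 (median 0.13), and for TRF against control 7 of 9 (median 0.13), beside 29 of 41 (median 0.10). The genes nlp-27 to nlp-31 neighbour each other in the genome and are read by probe sets that may also bind similar sequences, so they are not independent readings. Epidermis markers had a higher mean for 7 of 9 genes in H2O2 against control (median 0.27) and for 5 of 9 in TRF+H2O2+TRF against TRF (median 0.0041).

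Among the YGG genes, nlp-29, the best known reporter of fungal infection and wounding in the epidermis, averaged 2630 ± 664 in H2O2 worms, 2970 ± 460 in TRF worms, 2710 ± 358 in TRF+H2O2+TRF worms and 2798 ± 746 in control worms (SD). Its neighbour nlp-31 averaged 2401 ± 368 in H2O2 worms, 2739 ± 559 in TRF worms, 2411 ± 652 in TRF+H2O2+TRF worms and 2406 ± 259 in control worms. The group means of nlp-29 lay close together relative to these SDs. For nlp-31 the TRF mean lay above the other means by more than the control SD, and the TRF and control arrays overlapped. The level of nlp-28 ran between group means of 2819 and 3074, and that of nlp-27 between 1288 and 1309. In nlp-24, an opioid-like precursor that raises feeding during starvation, the highest group mean was 76.4 in TRF+H2O2+TRF worms, against the lowest of 52.6 in control worms, with SDs of 20.9 to 33.3.

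The caenacins, a sister family of epidermal antimicrobial peptides that was not part of the member rule, had a higher mean in TRF than in control for 7 of 7 genes (median 0.25), with cnc-2 at 0.44 ± 0.278 (SE). In TRF+H2O2+TRF against TRF 0 of 7 had a higher mean (median -0.42), and in H2O2 against control 1 of 7 had. Of the 7, 0 were called by limma in any comparison, beside at most 0.00739% of all tested. In TRF+H2O2+TRF against H2O2 cnc-4, at -0.34 ± 0.128 (SE), was the 1 gene under a limma unadjusted p of 0.05, beside 2.23% of all tested. In TRF+H2O2+TRF against TRF 1 of 7 also lay under that threshold, beside 1.46% of all.

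For 4 members with known roles in stress the limma test made 0 calls, beside at most 0.00739% of all tested in any comparison. FLP-1 modulates the oxidative stress response, and flp-1 averaged 717 ± 196 in H2O2 worms, 694 ± 198 in TRF worms, 785 ± 231 in TRF+H2O2+TRF worms and 704 ± 221 in control worms (SD). The flp-2 signal averaged 272 ± 66.1 in H2O2 worms, 229 ± 33.8 in TRF worms, 277 ± 70.9 in TRF+H2O2+TRF worms and 217 ± 52.5 in control worms, with log2 fold changes of 0.32 for H2O2 against control and 0.35 for TRF+H2O2+TRF against control. The stress sleep gene flp-13 averaged 266 ± 72.9 in H2O2 worms, 270 ± 81.8 in TRF worms, 263 ± 66.8 in TRF+H2O2+TRF worms and 263 ± 74.4 in control worms, so the group means lay far within their SDs. For nlp-8, which acts beside it in the ALA neuron, the means were 238 ± 38 in H2O2 worms, 212 ± 42.4 in TRF worms, 258 ± 112 in TRF+H2O2+TRF worms and 197 ± 30.8 in control worms, with log2 fold changes of 0.27 and 0.28 in those comparisons.

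Among members with other roles, nlp-40, the intestinal peptide that paces the defecation rhythm, had group means of 4260 ± 408 in H2O2 worms, 3674 ± 261 in TRF worms, 3871 ± 619 in TRF+H2O2+TRF worms and 4103 ± 673 in control worms (SD). It was the steadiest of the 50 nlp probe sets above the filter, with an SD within groups of 0.195 on the log2 scale. For flp-21, another ligand gene of NPR-1, the highest mean was 157 in TRF+H2O2+TRF worms, against the lowest of 137 in TRF worms, with SDs of 25.8 to 52.6. For nlp-1, a peptide gene of the AWC olfactory neurons, the highest was 219 in TRF+H2O2+TRF worms, against the lowest of 153 in control worms, with SDs of 37.3 to 86.7. For flp-6, which carries a temperature signal from the AFD neurons, the means lay between 856 in TRF worms and 941 in H2O2 worms, and for nlp-36 between 939 in TRF worms and 1054 in control worms. Among probe sets above the filter the spread was widest for flp-32, with an SD within groups of 1.113 on the log2 scale, followed among flp genes by flp-5 with 0.650, and for nlp-39 and nlp-2 (0.717) among nlp genes. The median SD was 0.391 for flp and 0.363 for nlp, beside 0.317 for all tested.

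Genes that make, store and sense the peptides were read from separate lists. In any comparison 0 of them were called, beside at most 0.00739% of all tested. All 12 processing enzymes passed the filter. For H2O2 against control 10 of 12 had a higher mean (median 0.16), among them egl-3, the main proprotein convertase of neuropeptides (0.39 ± 0.191, SE), and ida-1, a dense core vesicle protein (0.62 ± 0.355). For TRF against control 9 of 12 had a higher mean (median 0.19), with kpc-1, a furin-like convertase, at 0.73 ± 0.223. For TRF+H2O2+TRF against H2O2 7 of 12 had (median 0.068), with the carboxypeptidase genes cpd-1 at 0.42 and egl-21 at 0.20. Under a limma unadjusted p of 0.05 lay 0, 1 (kpc-1) and 0 of 12 in these comparisons, beside 2.34%, 3.5% and 2.23% of all tested.

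Of 17 genes for dense core vesicle maturation and release 14 passed the filter, and 8, 8 and 4 of 14 had a higher mean in the same 3 comparisons, with medians of 0.0041, 0.01 and -0.06. There hid-1, which keeps vesicles from losing cargo, had -0.68 ± 0.276 (SE) for H2O2 against control and 0.58 ± 0.202 for TRF+H2O2+TRF against H2O2, comparisons that share the H2O2 arrays. The G protein gene egl-30 had -0.59 ± 0.218 for TRF against control. Of 102 receptor genes on the array only 35 passed the filter, and 28, 27 and 20 of 35 had a higher mean, with medians of 0.15, 0.15 and 0.034. Among these dmsr-1, the receptor of FLP-13, had 0.65 ± 0.371 for H2O2 against control and 0.53 ± 0.346 for TRF against control.

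Of 25 neprilysin-like peptidases, enzymes that break peptides down, 5 passed the filter, and 4, 4 and 1 of 5 had a higher mean, with medians of 0.097, 0.027 and -0.12. Among 8 other peptide hormone genes 7, 6 and 3 had a higher mean, with medians of 0.33, 0.17 and -0.05. Of these, daf-7, a TGF-beta ligand that neurons release, had 0.46 ± 0.300 (SE) for H2O2 against control. The BMP-like ligand gene dbl-1 had 0.60 ± 0.293 for TRF against control and 0.47 ± 0.26 for TRF+H2O2+TRF against H2O2.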

How the data were processed

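RNA of 18 samples of whole worms was measured on Affymetrix arrays, with 1 array per sample. The deposited intensity values are MAS5 signals on a linear scale that the authors made with Affymetrix Expression Console, per the submitters' processing notes, with versions not given in the sources used here. The trimmed mean signal was 500.1 on every array, so the arrays had been scaled before deposit. No further normalization was applied.

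Of 22625 probe sets, 77 Affymetrix controls were left out. Values were taken as log2(signal + 1), with a pseudocount of 1. Probe sets with a mean log2 signal at or above the 40th percentile over all arrays were tested, which kept 13529 of 22548, and the filter lay at a geometric mean signal of 47.0. Each comparison was fitted in R 4.3.3 with limma 3.58.1 (lmFit, and eBayes with a variance trend) on the groups compared only, the interaction on all 18 arrays, and p-values were adjusted over all probe sets tested (Benjamini-Hochberg) with a threshold of 0.05. The fit was tested on simulated data. The unpaired t-test of the series design was run as an alternative, beside other filters, pseudocounts, normalizations, array weights, the replicate block and leaving out arrays.

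The members and lists were chosen with earlier results of these data known. Where a gene had several probe sets, the brightest on average stood for it. Named genes were, for flp and nlp apart, the 6 with the highest mean signal, the 5 with the smallest p in each comparison of the series design, the 2 with the smallest p in each other comparison and in the interaction, any gene called, the 2 with the largest SD within groups, and a list chosen by role, of which flp-20, nlp-22 and nlp-38 had no probe set above the filter. Of the other lists, members called and the 2 with the smallest p in each comparison of the series design were named.

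Replicate numbers come from the sample labels, which do not say what a number shares. Deviations of equally numbered samples from their group means correlated at 0.280 to 0.681 for H2O2 and control. For TRF+H2O2+TRF and TRF they correlated at 0.350 to 0.686, so equal numbers were read as possible pairs in these comparisons. The main fits did not use this pairing, and the replicate number as a block was an alternative only. In the other comparisons the lowest correlation was 0.022 or below and the numbers were not taken as pairs. Symbols came from the platform annotation given with the series, and no sequences were used. RefSeq gene coordinates served to find members that neighbour each other in the genome.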

Additional observations from a re-analysis of the deposited data

Results flagged for a closer look

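A single array stood apart from the others of its group, by Dixon's criterion at the 95% level on log2 signals, in 16 of 176 groups of arrays tested. Chance flags about 1 in 20 unrelated groups that were not chosen by their values. That rate is no measure here, because some genes were named for a large SD within groups. The groups also share arrays, and the list means hold the named genes. TRF replicate 3 was the lowest array in 8 of them. Its signal was 3.88 for flp-32 beside 91.7 to 118 on the other TRF arrays, 219 for flp-11 beside 316 to 336, 149 for flp-7 beside 295 to 327 and 148 for flp-13 beside 303 to 321. It was 345 for nlp-11 beside 630 to 665, and 283 for nlp-80 beside 530 to 569. The mean log2 signal of that array was 7.81 over the flp probe sets beside 8.48 to 8.59, and 7.95 over the nlp probe sets beside 8.42 to 8.49. TRF+H2O2+TRF replicate 3 was low for flp-7, at 270 beside 448 to 456.

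Control replicate 5 was low for flp-14, at 105 beside 134 to 143, and for nlp-2, at 13.2 beside 66.4 to 70.3. Control replicate 4 was high for flp-10, at 384 beside 238 to 269. TRF+H2O2+TRF replicate 1 was high for flp-22, at 808 beside 525 to 560, and for nlp-2, at 118.9 beside 63.1 to 67.3. In the H2O2 group replicate 2 was low for flp-6, at 756 beside 971 to 1004, and replicate 3 for nlp-36, at 915 beside 1048 to 1104.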

How the results depend on the processing

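Of the fitted values recomputed under the alternatives, all 916 log2 fold changes of named genes kept their direction and side of the threshold. They cover each gene only in the comparisons where its p was among the smallest of its family, so that choice favoured a kept direction. Directions of named genes in other comparisons were not part of that count. Under any alternative 0 members were called. The count of all probe sets called moved in a few cases, none of them for a member. For TRF against control it was 1, and 2 with median centring, 0 with the methods' t-test and 1 to 2 with each array left out. For TRF+H2O2+TRF against control it was 0, and 0 to 1 with each array left out. With the replicate number as a block it was 1 for TRF+H2O2+TRF against TRF, in place of 0, and the block changed no other call. The nlp median for TRF+H2O2+TRF against H2O2 changed sign in 4 of 9 fits with an array left out, between -0.098 and 0.18, and in 3 of 15 other alternatives. The cause was not tested. The medians without the number 3 arrays of TRF-fed groups, and the counts higher in both H2O2 comparisons with arrays left out, were chosen after seeing the data. Signals near the filter, and groups of 4 or 5 arrays, limit what could be detected, and a missed threshold does not show that levels were equal.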
